A study of Bos taurus with 5 samples.

Results

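The insulin-like growth factor (IGF) genes were taken from the table by their symbols: the ligands IGF1 and IGF2, the receptors IGF1R and IGF2R, and the binding proteins IGFBP1 to IGFBP7. Of these 11 symbols 5 had rows, namely IGF1, IGF2, IGF1R, IGF2R and IGFBP7, with 8 of the 13391 transcripts and 5 of the 9022 genes of the table. IGFBP1 to IGFBP6 were not analysed here. The material was longissimus dorsi, a back muscle, of Jiaxian Red cattle aged 18 months. Each of 5 animals gave 1 library of total RNA, with no treatment named in the labels, and all 5 formed a single group. There was thus no contrast between conditions, and the IGF genes were compared with each other within a library and across the 5 animals. The muscle was sequenced whole, so fibres, vessels and connective tissue contributed together, and fewer cells of a type cannot be told apart from less RNA per cell.

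IGF1 and IGF2 are small secreted proteins related to insulin. Liver releases IGF1 under the control of growth hormone, and muscle also makes it locally, where it promotes protein synthesis and the growth of fibres. IGF2 is an imprinted gene known for its part in fetal growth and in the differentiation of myoblasts. IGF1R is the tyrosine kinase receptor through which both ligands signal. IGF2R, the cation-independent mannose 6-phosphate receptor, carries enzymes to the lysosome and removes IGF2 from the cell surface. IGFBP7 is a secreted protein of vessel walls and matrix that binds IGFs weakly.

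Levels are in FPKM, a unit that divides fragments by the length of the transcript and by the size of the library, and a gene's level is the sum over its listed transcripts. No counts were given, so absolute depth is unknown. Low FPKM of genes with 1 listed transcript fell into steps for a minority of values: 9 to 22 of 352 to 459 values per pair of libraries lay at ratios of small whole numbers (within 0.0015 on the log2 scale) at the best offset, against a median of 2 or 3 at other offsets. The best offset was picked for its high count, so that count exceeds the median by construction. The offsets of all pairs of libraries fitted 1 depth per library to within 0.0016 on the log2 scale. Libraries 2, 3, 4 and 5 were thus estimated to be 1.07, 1.18, 1.26 and 1.19 times as deep as library 1. The summed FPKM per library ran from 193706 to 223251. A gene was called detected at a mean of at least 1 FPKM, which 6136 genes (68.0% of all listed) reached. All 5 IGF genes did, though IGF1 did not when only its most abundant transcript was counted, at 0.700 FPKM.

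The ligands stood far apart in level, and their order across animals differed. IGF2 (ENSBTAG00000013066; chromosome 29, 49403661 to 49422468 in the table's coordinates) measured 19.4, 14.4, 14.4, 9.27 and 9.09 FPKM in libraries 1 to 5. Its mean was 13.3 ± 4.27 FPKM (SD, n = 5), higher than 72.1% of detected genes. Library 1 was the highest, libraries 2 and 3 were nearly equal, and libraries 4 and 5 were the lowest, with 2.13 as the ratio of highest to lowest. Without library 1 that ratio was 1.58. IGF2 varied more between animals than 79.4% of detected genes, with an SD of 0.43 in log2(FPKM + 1).

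IGF1 (ENSBTAG00000011082; chromosome 5, 66191602 to 66264083) measured 1.001, 0.724, 2.05, 2.10 and 0.360 FPKM in libraries 1 to 5. Its mean of 1.25 ± 0.790 FPKM (SD, n = 5) lay close to the detection limit, and only 4.46% of detected genes had a lower mean. Libraries 3 and 4 were high and libraries 1, 2 and 5 low, and the ratio of highest to lowest was 5.83. Without library 5 that ratio was 2.90. The log2 SD of IGF1 was 0.52, above that of 85.0% of detected genes. Of the 5 IGF genes, IGF1 was the only one below 1 FPKM in any library, in libraries 2 and 5. Of all detected genes, 84.4% were at 1 FPKM or more in every library.

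**Figure D1:**
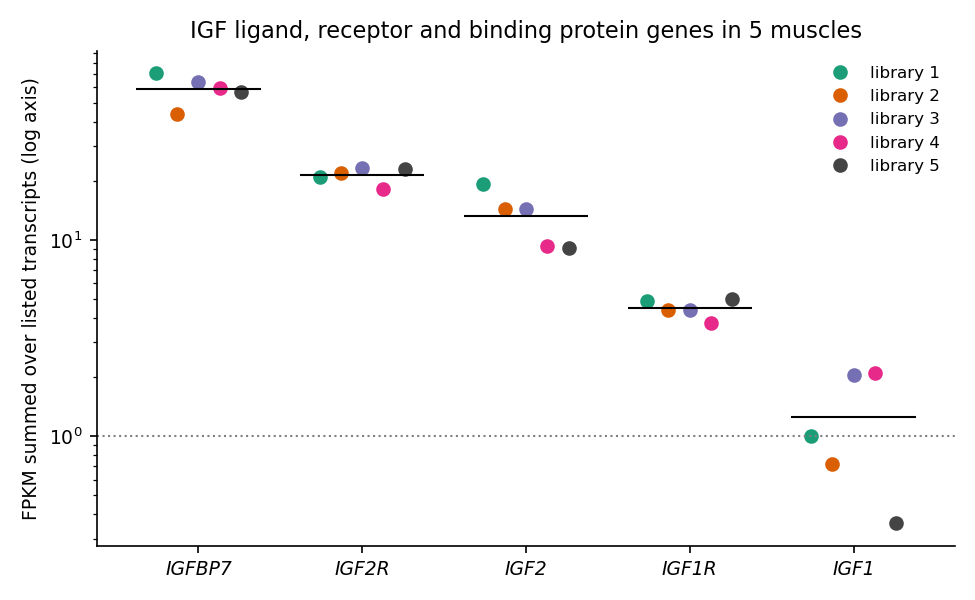
FPKM of each IGF gene (vertical log axis) in the 5 libraries, 1 point per animal, with the mean as a black line and 1 FPKM as a dotted line. IGFBP7 lies at 43.8 to 70.6 FPKM, IGF2R at 18.2 to 23.3, IGF2 at 9.09 to 19.4, IGF1R at 3.78 to 4.97 and IGF1 at 0.360 to 2.10.

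The ratio of IGF2 to IGF1 therefore moved widely from animal to animal. In FPKM it came to 19.3, 19.9, 6.99, 4.42 and 25.3 in libraries 1 to 5. IGF2 was the higher ligand in 5 of 5 animals, and no IGF2 value fell within the range of IGF1. Libraries 3 and 4, where IGF1 was high, had the small ratios. IGF1 lay near the detection limit and its counting error is unknown, so the part of that error in this movement was not tested. The mean log2 ratio of FPKM + 1 was 2.69 ± 0.66 (SD, n = 5; exact two-sided sign-flip permutation p = 0.0625, the smallest that 5 animals allow). The added 1 FPKM shrinks this ratio, since IGF1 itself is near 1 FPKM. With 0.1 FPKM added instead, the mean log2 ratio was 3.49 ± 1.01 (SD, n = 5). Both genes had gaps in their transcript numbers, as did 34.7% of numbered genes in the table, so either sum may be partial.

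IGF2 had 3 listed transcripts, whose shares of the gene moved less than those of the IGF1 transcripts. IGF2-204 (49412393 to 49419941) averaged 6.58 ± 2.25 FPKM (SD, n = 5), IGF2-205 (49415194 to 49419941) 5.21 ± 1.44, and IGF2-202 (49403661 to 49422468), the model with the longest span, 1.503 ± 0.636. IGF2-204 held 45.0% to 51.7% of the gene's FPKM in each library, IGF2-205 37.7% to 45.5% and IGF2-202 9.52% to 12.6%. In FPKM the ratio to IGF2-202 ran from 3.92 to 5.40 for IGF2-204 and from 2.98 to 4.78 for IGF2-205. Library 1 was the highest for each of the 3 transcripts, and libraries 4 and 5 were the lowest for each. IGF2-204 exceeded IGF2-205 in 4 of 5 animals, by 1.29 to 1.34 times in FPKM. In library 4 the ratio was 0.988. The log2 ratio of FPKM + 1 for this pair averaged 0.27 ± 0.16 (SD, n = 5; exact two-sided sign-flip permutation p = 0.125).

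IGF1 had 2 listed transcripts, and the leading one changed between animals. IGF1-201 (66191602 to 66264083) measured 0.413, 0.668, 0.492, 1.85 and 0.0745 FPKM in libraries 1 to 5. IGF1-203 (66205831 to 66264083), a model with a shorter span, measured 0.588, 0.0558, 1.56, 0.246 and 0.285 FPKM in the same order. IGF1-201 thus held 92.3% of the gene in library 2 and 88.3% in library 4, but 41.2%, 24.0% and 20.7% in libraries 1, 3 and 5. The similar gene sums of libraries 3 and 4 came mostly from different transcripts. In FPKM the ratio of IGF1-201 to IGF1-203 ran from 0.261 to 12.0. The log2 ratio of FPKM + 1 averaged 0.13 ± 0.79 (SD, n = 5; exact two-sided sign-flip permutation p = 0.8125). The added 1 FPKM is larger than most of these values, so it understates the swing. A change of leading transcript between libraries was seen in 29.0% of the 2421 detected genes with several transcripts. At these low FPKM the split between overlapping models is an estimate whose own error the table does not give.

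**Figure D2:**
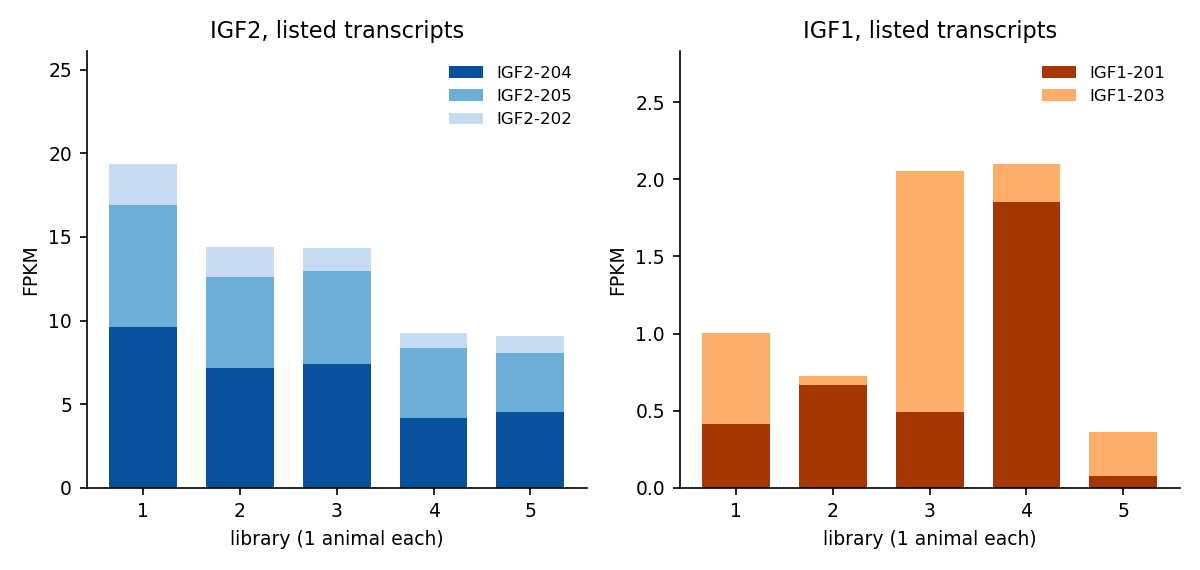
Stacked bars of FPKM per listed transcript in each library, for IGF2 on the left and IGF1 on the right, with separate vertical axes. The 3 IGF2 transcripts are each highest in library 1 and lowest in libraries 4 and 5. IGF1-203 makes up most of IGF1 in library 3 (76.0%) and IGF1-201 most of it in library 4 (88.3%).

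The receptors varied least of the 5 IGF genes. IGF1R (ENSBTAG00000021527; chromosome 21, 7780293 to 8080394) measured 4.90, 4.39, 4.39, 3.78 and 4.97 FPKM in libraries 1 to 5. Its mean was 4.49 ± 0.482 FPKM (SD, n = 5), with 38.4% of detected genes below it. IGF2R (ENSBTAG00000002402; chromosome 9, 96197493 to 96300017) was at 20.8, 22.0, 23.3, 18.2 and 22.9 FPKM in libraries 1 to 5, a mean of 21.4 ± 2.04, with 83.0% of detected genes below it. Library 4 was the lowest for both receptors. Their log2 SDs were 0.13 for IGF1R and 0.14 for IGF2R, and 14.0% and 15.7% of detected genes had a smaller SD. Library 4 set much of this small spread, since without it the SDs were 0.081 for IGF1R and 0.068 for IGF2R. Without library 2 they were 0.15 and 0.16, and IGFBP7 then varied less, at 0.13.

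IGF2R exceeded IGF1R in 5 of 5 animals, by 4.25 to 5.30 times in FPKM. The log2 ratio of FPKM + 1 averaged 2.03 ± 0.11 (SD, n = 5; exact two-sided sign-flip permutation p = 0.0625), the steadiest of the 10 pairs of IGF genes. The 1 FPKM added to both genes makes this mean smaller than the log2 of the FPKM ratios. Of 6134 other detected genes, 3.90% had a log2 ratio to IGF2R with a smaller SD than that of IGF1R, and 4.42% had a log2 ratio to IGF1R with a smaller SD than that of IGF2R. Each receptor varied little on its own, and these shares are not limited to genes of like spread. Whether the receptors moved together beyond that was not tested. Each receptor had 1 listed transcript and no gap in its numbering.

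Among ligand and receptor pairs, only IGF2 and IGF2R had ranges that overlapped between animals. IGF2 exceeded IGF1R in 5 of 5 animals, with FPKM ratios of 3.95, 3.27, 3.27, 2.45 and 1.83 in libraries 1 to 5, and the ranges did not overlap. Counting only the most abundant IGF2 transcript, IGF2-204, IGF2 lay above IGF1R in 4 of 5 animals. IGF2R exceeded IGF2 in 5 of 5 animals within a library, yet the lowest IGF2R value, 18.2 FPKM, lay under the highest IGF2 value, 19.4. The ratio of IGF2R to IGF2 was 1.08 in library 1 and 2.52 in library 5, so these neighbours were close in library 1 and further apart in library 5. IGF1R exceeded IGF1 by 1.80 to 13.8 times, again in 5 of 5 animals.

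**Figure D3:**
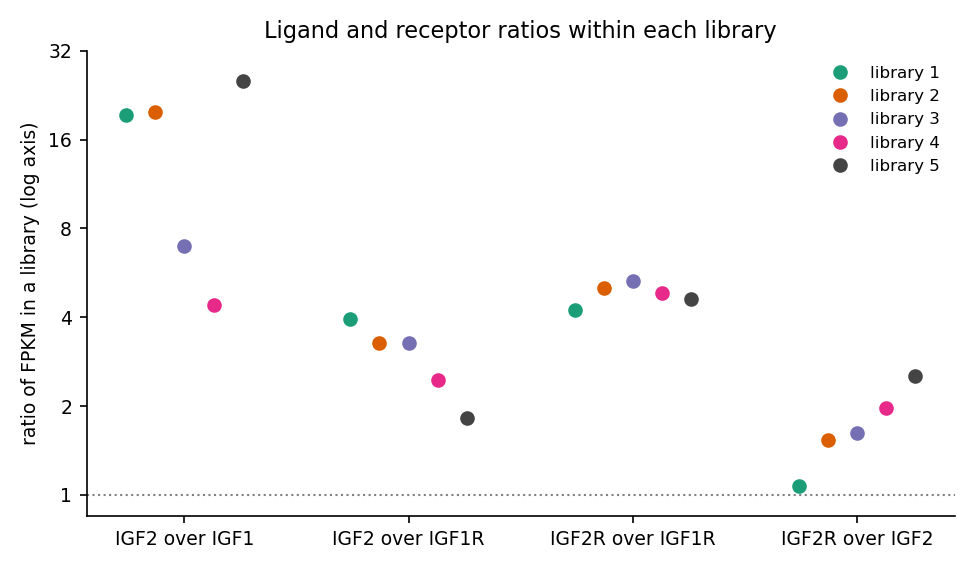
Ratio of FPKM within each library (vertical log axis) for 4 pairs of IGF genes, 1 point per animal, with equal levels as a dotted line. IGF2 over IGF1 spans 4.42 to 25.3, with IGF1 near the detection limit, while IGF2R over IGF1R stays between 4.25 and 5.30.

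IGFBP7 was the most abundant of the IGF genes. IGFBP7 (ENSBTAG00000019368; chromosome 6, 72405716 to 72486115) measured 70.6, 43.8, 63.5, 59.7 and 56.8 FPKM in libraries 1 to 5. Its mean of 58.9 ± 9.89 FPKM (SD, n = 5) exceeded that of 93.9% of detected genes. Library 2 lay lowest and library 1 highest. The log2 SD of 0.25 was close to the median of all detected genes, also 0.25, and fell to 0.13 without library 2. IGFBP7 lay above every other IGF gene in 5 of 5 animals with no overlap, by 1.99 to 3.39 times in FPKM over IGF2R, the nearest.

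The order of levels was thus IGFBP7, IGF2R, IGF2, IGF1R and IGF1 in each of the 5 animals. All 10 pairs kept 1 direction in 5 of 5 animals, and 9 of 10 had ranges that did not overlap. Such separation was common in the table. Of the 6135 other detected genes, 95.5% lay on 1 side of IGFBP7 in 5 of 5 libraries, 90.6% of IGF2R, 74.8% of IGF2, 77.5% of IGF1R and 75.4% of IGF1. The exact sign-flip permutation p was 0.0625 for each of the 10 pairs, unadjusted. No pair of genes could reach 0.05 with 5 animals.

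Across animals the IGF genes did not share 1 pattern. Relative to its own mean log2 level, IGF2 was highest in library 1 (0.56) and lowest in libraries 4 and 5 (-0.43 and -0.45). IGF1 was highest in libraries 3 and 4 (0.52 and 0.54) and lowest in library 5 (-0.65). In library 4 the ligands went opposite ways, with IGF1 at its highest and IGF2 near its lowest, and in library 5 both were at their lowest. No IGF gene had a single library standing apart by Dixon's gap ratio, the gap of the extreme library divided by the range, with a limit of 0.71, which 7.37% of detected genes exceeded.

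**Figure D4:**
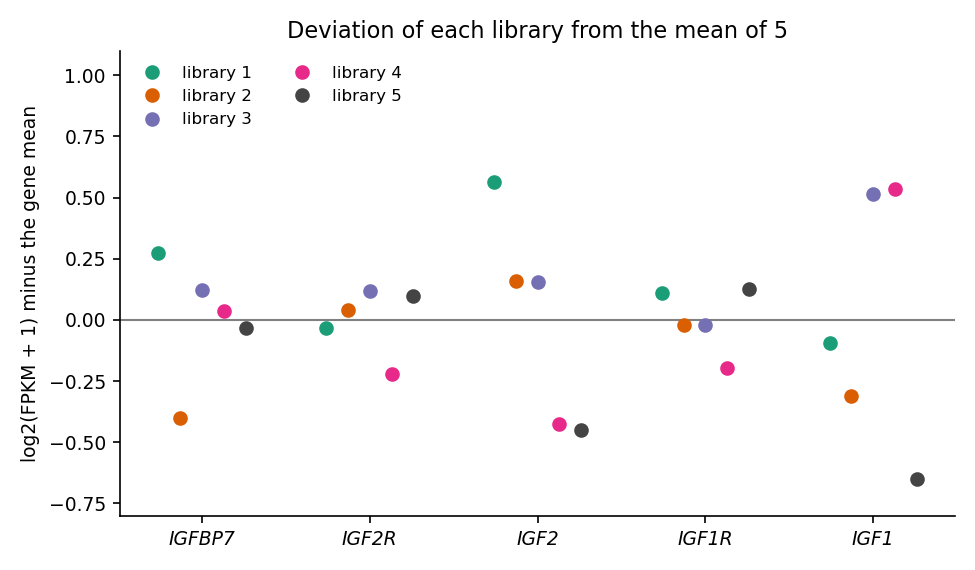
Deviation of log2(FPKM + 1) in each library from the gene's mean over 5 libraries (vertical axis), 1 point per animal. IGF2 runs from -0.45 to 0.56 and IGF1 from -0.65 to 0.54, while the receptors stay within -0.22 and 0.13.

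Markers of other cells were set beside these values. Of 8 muscle fibre markers 7 were listed, all detected, with summed levels of 14777 to 16270.5 FPKM. Library 5, where both ligands were lowest, had the lowest CKM (muscle creatine kinase), 2.50 FPKM against 9.67 to 35.5 in the others. It had the highest MB (myoglobin), 766 FPKM against 106 to 214. CKM and MB were the most variable of the listed fibre markers, and they went opposite ways in library 5. ACTA1 and MYH7 were also lowest in library 5, at 4575 and 2914 FPKM. TNNT3, TNNT1 and MYLPF were at neither extreme there, at 2204, 1847 and 2491 FPKM. MB and TNNT1 had gaps in their transcript numbers, so their sums may be partial. The same held for ACTA2, MYH11, RGS5, PDGFRA and VWF among the pericyte, smooth muscle, fibroblast and endothelial markers. Pericyte and smooth muscle markers, 5 of 5 listed, summed to 88.7, 46.0, 70.1, 59.6 and 36.5 FPKM in libraries 1 to 5. The sum, carried by ACTA2 and TAGLN, was highest in library 1 and lowest in library 5 as for IGF2, but it was lower in library 2 than in library 4 where IGF2 was higher. PDGFRB, on the same list, was highest in library 2 (4.91 FPKM) and lowest in library 4 (0.667). RGS5, a pericyte marker, stayed at or below 0.559 FPKM, and MYH11, smooth muscle myosin, reached 7.82 FPKM in library 1 but no more than 0.821 in the others. Fibroblast markers, 3 of 6 listed, summed to 845, 394, 541, 769 and 460 FPKM, highest in library 1 and lowest in library 2 as for IGFBP7. Most of this sum was COL3A1, and PDGFRA was highest in library 4 (32.1 FPKM) with 25.9 in library 1. Endothelial markers, 6 of 6 listed, summed to 103, 89.8, 99.7, 96.3 and 103 FPKM, also lowest in library 2, with VWF at or below 0.179 FPKM. PECAM1, EMCN and EGFL7 were lowest in library 2, while CDH5, KDR and VWF were lowest in library 4. Estimated relative depth was lowest in library 1, where IGF2 was highest. It was highest in library 4, where IGF2 was near its lowest and both receptors were at theirs. The part of these markers and of depth in the IGF values was not tested.

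The remaining markers were low or few. ALB, albumin, the single liver marker listed of 4, was at 0.0247 to 0.418 FPKM. It had a gap in its transcript numbers, so its sum may be partial. HBB, a beta-globin gene and the single blood marker listed of 4, was at 0.253 to 3.09 FPKM, highest in library 3. PAX7, of satellite cells, was the single listed marker of 4 and was at 0.135 to 1.36 FPKM, lowest in library 4. CIDEC, of fat cells, was the single listed marker of 5, at most 0.809 FPKM and listed at 0 in library 5. Macrophage markers, 2 of 5 listed, summed to 5.28 to 14.8 FPKM.

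Genes of the wider IGF pathway were drawn from 8 lists of 70 symbols in all. Of these 39 had rows, and 32 were detected (82.1% of the listed, against 68.0% of all listed genes). The detected pathway genes had a median level of 11.5 FPKM, against 6.38 for all detected genes, and a median log2 SD of 0.26, against 0.25.

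Upstream of IGF1, 2 of 6 growth hormone axis genes were listed, both detected. GHR, the growth hormone receptor, measured 21.9, 42.8, 27.6, 38.6 and 33.1 FPKM in libraries 1 to 5. GHR was highest in libraries 2 and 4, and IGF1 in libraries 3 and 4. JAK2, the kinase bound to GHR, averaged 16.6 ± 2.29 FPKM (SD, n = 5). Of 8 genes of the ternary complex or acting on binding proteins, 4 were listed and the others were not analysed here. Of these 4, 1 was detected, against 68.0% of all listed genes: STC1, a stanniocalcin that inhibits pappalysins, at 1.44 ± 0.353 FPKM (SD, n = 5). The IGFBP proteases PAPPA, at most 0.276 FPKM, and PAPPA2, at most 0.303, were near 0, and ADAM12 averaged 0.643 ± 0.294. PAPPA was listed at 0 in library 4, and with a gap in its transcript numbers its sum may be partial.

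At the receptor, 5 of 7 genes were listed and 4 detected. INSR, the insulin receptor, was at 21.7, 16.1, 14.7, 13.3 and 16.5 FPKM in libraries 1 to 5, and its listed sum may be partial. It exceeded IGF1R in 5 of 5 animals, by 3.32 to 4.42 times in FPKM. The log2 ratio of FPKM + 1, which the added 1 FPKM makes smaller, averaged 1.66 ± 0.17 (SD, n = 5; exact two-sided sign-flip permutation p = 0.0625). INSR also exceeded IGF2 in 5 of 5 animals, by 1.03 to 1.82 times in FPKM. GRB10, an adaptor that restrains insulin and IGF1 receptors, measured 4.66, 22.6, 19.6, 3.47 and 16.8 FPKM in libraries 1 to 5. Its log2 SD of 1.13 exceeded the SD of 97.4% of detected genes, and its libraries fell into a low pair, 1 and 4, and a high set of 3. SHC1, an adaptor to the Ras pathway, averaged 7.79 ± 3.15 FPKM, and GRB14 averaged 0.418 ± 0.139.

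Of 19 genes of the kinase cascade 15 were listed, all detected. Their median log2 SD was 0.17, against 0.25 for all detected genes, and 5 of the 15 lay above that background. PIK3CA, a catalytic subunit of PI3K, averaged 18.4 ± 1.47 FPKM (SD, n = 5), and RHEB, the activator of mTOR complex 1, 15.4 ± 2.004. TSC2 and TSC1, which restrain RHEB, were the most variable, at 4.89 ± 1.30 and 1.09 ± 0.477 FPKM. Both had gaps in their transcript numbers, so their sums may be partial. TSC1 lay close to the detection limit and reached 1 FPKM in 2 of 5 libraries.

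Genes tied to IGF2 by position or RNA binding were mixed. Of 6 regulators of IGF2 expression or RNA, IGF2BP2, at 0.257 to 0.617 FPKM, and IGF2BP3, at most 0.0787 FPKM and listed at 0 in library 4, had rows, and neither was detected. Of 7 genes of the imprinted region or its flank, 3 were listed, all detected. CD81, a tetraspanin, was at 56.4 ± 3.11 FPKM (SD, n = 5) and CDKN1C, an imprinted inhibitor of the cell cycle, at 16.4 ± 2.38. KCNQ1, a potassium channel gene, was at 2.19, 2.71, 0.0191, 0.0353 and 1.72 FPKM in libraries 1 to 5. It had a gap in its transcript numbers, so its sum may be partial. CDKN1C and IGF2 were both highest in library 1, but libraries 2 to 5 of CDKN1C lay within 14.8 to 15.9 FPKM.

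Among muscle growth genes, 4 of 7 were listed, all detected. TRIM63 and FBXO32, ubiquitin ligases of muscle atrophy, averaged 100.3 ± 16.6 and 26.0 ± 8.83 FPKM (SD, n = 5). MYF6, a myogenic factor of mature fibres, averaged 4.19 ± 1.46. Of 10 other genes with an IGFBP-type domain, 4 were listed and 3 detected. CCN1 and CCN2, secreted matrix proteins, averaged 35.2 ± 11.1 and 34.1 ± 8.03 FPKM, CRIM1 4.04 ± 2.20, and CCN4 0.155 ± 0.180. CCN1 and CCN2 were highest in library 1 and lowest in library 3.

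**Figure D5:**
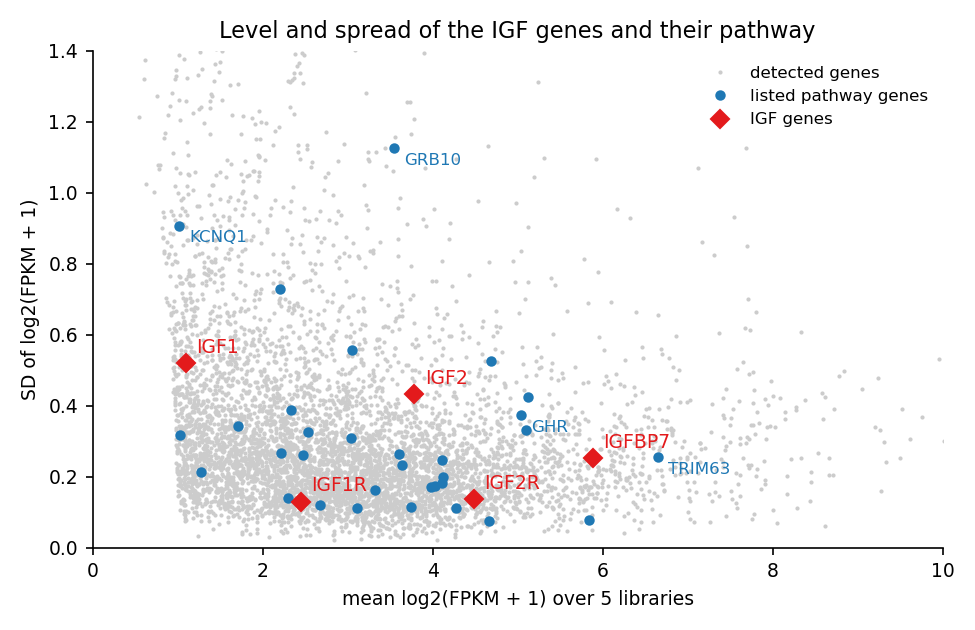
Mean level (horizontal axis, log2(FPKM + 1)) and SD over 5 libraries (vertical axis) of detected genes (grey), detected pathway genes (blue) and the 5 IGF genes (red), with 109 detected genes outside the axes. The receptors lie low in spread, at 0.13 and 0.14, and the ligands higher, at 0.43 for IGF2 and 0.52 for IGF1.

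Genes whose deviations over the 5 libraries were most like those of each ligand were ranked by the root mean square difference on the log2(FPKM + 1) scale, among genes of like spread. For IGF2 the nearest of 2265 candidates was HEYL, a Notch target gene, with a difference of 0.06 against a candidate median of 0.53. HEYL was at 8.49, 6.75, 6.499, 4.38 and 4.23 FPKM in libraries 1 to 5. BOLA-DMA (0.08), IFRD1 (0.09), NFATC1 (0.12) and XPO4 (0.12) followed. For IGF1 the nearest of 1662 candidates was GPCPD1, a glycerophosphocholine phosphodiesterase, at 57.1, 48.1, 101.8, 84.6 and 36.4 FPKM, with a difference of 0.11 against a candidate median of 0.54. MFAP5, a microfibril protein, was next (0.13), at 23.5, 17.8, 34.0, 37.0 and 12.1 FPKM, then NCALD (0.15), MSRB3 (0.15) and LYRM7 (0.16). With 5 libraries and this many candidates, the ranking is a description of these libraries only.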

How the data were processed

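Total RNA of longissimus dorsi from 5 animals was sequenced, 1 library each. The authors deposited FPKM per transcript, per the file headers, with 1 column for every library. HTSeq 0.6.0, DESeq2 1.10.1 and the genome build UMD3.1 appear in the submitters' processing notes without a stated use. Which aligner, annotation release and FPKM program were used is not given in the sources used here. All 11 IGF symbols matched a RefSeq gene table of ARS-UCD2.0, and the 5 listed genes overlapped their positions there. Coordinates are those of the deposited table, and the build behind them is uncertain.

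FPKM were summed per gene identifier and analysed as log2(FPKM + 1) in Python 3.11.15 with numpy 2.4.6 and pandas 2.3.3, and drawn with matplotlib 3.10.9. Pairs of genes were tested within libraries by flipping the signs of the log2 ratios in all ways, an exact permutation test, two-sided. Replicate numbers were those of the labels, and p-values take these 5 animals as the units. A p of 0.0625 arises whenever all 5 log2 ratios share a direction, whatever their spread. The gap ratio, the ranking of like profiles and the sign-flip test were tried on simulated data, and the estimate of relative depth was not. Named were all IGF genes, in each pathway list the 3 most abundant genes, the 2 most variable detected genes and those under 1 FPKM, and the 5 genes nearest in profile to each ligand. Those had a symbol, 1 FPKM or more in every library and an SD within 0.5 to 2 times that of the ligand. 1 gene that this rule names is not reported here. The members and lists were chosen with earlier results of these data known. Alternatives were a pseudocount of 0.1, other detection limits, rescaling every library to a common total (TPM), median-ratio size factors, the transcript of highest mean alone, and leaving out each library.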

Additional observations from a re-analysis of the deposited data

Results flagged for a closer look

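CDKN1C stood at 20.6 FPKM in library 1, while the other 4 libraries lay between 14.8 and 15.9 FPKM, a gap that exceeded Dixon's limit for 5 libraries. It was the single gene past the limit of 32 checked, and none of the 8 IGF transcripts passed it. The cell type markers were not among the 32. Of these markers, MYH11 (gap ratio 0.84) and PAX7 (0.77, at a mean under 1 FPKM) also exceeded the limit. Chance alone passes this limit in about 5% of groups, and 7.37% of detected genes did so here.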

How the results depend on the processing

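All 10 log2 ratios between IGF genes kept their direction in the 90 combinations of pair and alternative setting, and in 89 of them every library shared it. The exception was IGF2 over IGF1R with the transcript of highest mean alone (4 of 5 libraries). Rescaling every library to a common total (TPM) moved the mean log2 levels to 8.14 for IGFBP7, 6.70 for IGF2R, 5.97 for IGF2, 4.498 for IGF1R and 2.62 for IGF1, by construction, and the SDs to 0.22 for IGF1R and 0.83 for IGF1. A pseudocount of 0.1 gave levels of 2.19 for IGF1R and 0.20 for IGF1, with an SD of 0.96 for IGF1. The transcript of highest mean alone gave a level of 2.87 for IGF2, by construction. Raising the limit on the mean to 5 FPKM kept 3 IGF genes. A requirement of 1 FPKM in every library, or counting only the transcript of highest mean, kept 4, without IGF1. Leaving out each library in turn, the SD ran from 0.13 to 0.29 for IGFBP7, from 0.068 to 0.16 for IGF2R and from 0.081 to 0.15 for IGF1R. Absolute depth is unknown, so counting error could not be given, and it bears most on IGF1. No paired analysis was possible because replicate numbers pair no samples within 1 group, and only genes were compared within a library.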

Other observations

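In the order of protein-coding genes in the ARS-UCD2.0 table, TNNT3, the fast troponin T gene, is the second neighbour of IGF2 on one side, after MRPL23, a mitochondrial ribosomal protein gene. TNNT3 averaged 2252 ± 98.3 FPKM and MRPL23 8.32 ± 1.67 (SD, n = 5), against 13.3 ± 4.27 for IGF2. Next to IGFBP7 lies POLR2B, a subunit of RNA polymerase II, at 34.3 ± 3.91 FPKM. On its other side is ADGRL3, at 1.57 ± 0.565 FPKM.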
